A study of Mus musculus with 35 samples.

Results

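Of 35 single mouse embryonic fibroblasts captured after irradiation, the 10 with the most and the 10 with the fewest mitotic transcripts were set side by side. The ranking used 10 genes that are transcribed towards and through mitosis: Top2a, Mki67, Cdk1, Ccnb1, Cenpf, Tpx2, Nusap1, Ube2c, Birc5 and Hmgb2. Their CPM (reads of a gene scaled to a common total of reads on genes in each cell, spike-ins left out) were summed. The cells were chosen by this sum: the 10 highest of the 35 are called the many side, the 10 lowest the few side and the 15 others the cells between. The 10 ranking genes chose the sides and are left out of all gene results.

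The cells are fibroblasts cultured from C57Bl/6J embryos at 3% oxygen. All 35, on both sides alike, received 1 Gy of ionising radiation, were moved onto membrane dishes 32 h later, had their DNA stained with PicoGreen and were cut out by laser 48 h after the dose. No unirradiated group is used. In 21 cells the labels record micronuclei, small bodies of chromatin enclosed apart from the main nucleus, and in 14 none. Each library is 1 cell made into cDNA by Smart-seq2, a full-length method without molecular identifiers. No culture, embryo or day is named, so each side counts as 1 sample and no p-value is given. Cells are numbered within their label. Because the sides were cut from the same libraries, the differences below describe the split and have no independent check.

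Mitotic genes are transcribed in a wave from the end of S phase into G2 and M. In resting and G1 cells many of them are held silent by the DREAM complex, which sits on a short promoter element, the cell cycle genes homology region (CHR); B-MYB and FOXM1 activate the same promoters later through the MuvB core that DREAM also contains. Genes of DNA replication peak earlier and are controlled mostly by E2F sites. After DNA damage, p53 raises Cdkn1a, whose product p21 inhibits cyclin-dependent kinases and keeps DREAM in place.

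The promoters below show that element where the sequence carries it. They are the 100 bases before the RefSeq transcription start in build GRCm38.p6, 5′ to 3′ on the gene's strand, for 4 mitotic genes chosen because the element lies there and for 2 replication genes chosen as a contrast. Capitals mark the CHR letters (TTTGAA or TTCGAA, on either strand) and CCAAT, the box bound by NF-Y, which often lies upstream of it.
Cdc20, chr4:118437344-118437443, minus strand: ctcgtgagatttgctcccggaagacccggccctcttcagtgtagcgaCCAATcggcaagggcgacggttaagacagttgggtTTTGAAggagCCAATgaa
Fam83d, chr2:158767999-158768098, plus strand: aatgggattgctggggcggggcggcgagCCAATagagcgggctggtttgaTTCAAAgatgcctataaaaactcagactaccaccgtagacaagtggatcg
Ncapg, chr5:45669825-45669924, plus strand: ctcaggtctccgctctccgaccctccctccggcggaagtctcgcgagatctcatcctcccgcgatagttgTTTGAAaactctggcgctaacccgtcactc
Ncaph2, chr15:89355619-89355718, plus strand: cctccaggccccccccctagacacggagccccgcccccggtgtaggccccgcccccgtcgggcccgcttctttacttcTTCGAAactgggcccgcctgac
Tyms, chr5:30073626-30073725, minus strand: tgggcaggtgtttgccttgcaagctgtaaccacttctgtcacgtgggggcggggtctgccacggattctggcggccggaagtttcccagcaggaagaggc
Rrm2, chr12:24708154-24708253, plus strand: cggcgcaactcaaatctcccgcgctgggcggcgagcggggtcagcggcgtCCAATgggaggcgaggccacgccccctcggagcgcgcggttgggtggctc

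Summed CPM of the ranking genes was 858 to 3354 in the many side (median 1683), 251 to 853 in the cells between (median 418) and 2.77 to 247 in the few side (median 74.2). The limits fall between near neighbours. The last cell inside the many side stood at 858 and the first outside it at 853, and the few side began at 247, below a cell at 251. In cell 8 without micronuclei, the last of the many side, Ccnb1 alone gave 63.0% of the score, and in cell 14 without micronuclei Top2a gave 55.4%. Micronuclei were recorded in 6 of 10 cells of the many side (60%, exact Clopper-Pearson 95% interval 26.2 to 87.8%), in 8 of 10 of the few side (80%, 44.4 to 97.5%) and in 7 of the 15 between (46.7%, 21.3 to 73.4%), against 21 of 35 in all. The intervals cover counting error only, and the difference in shares was not tested.

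**Figure D1:**
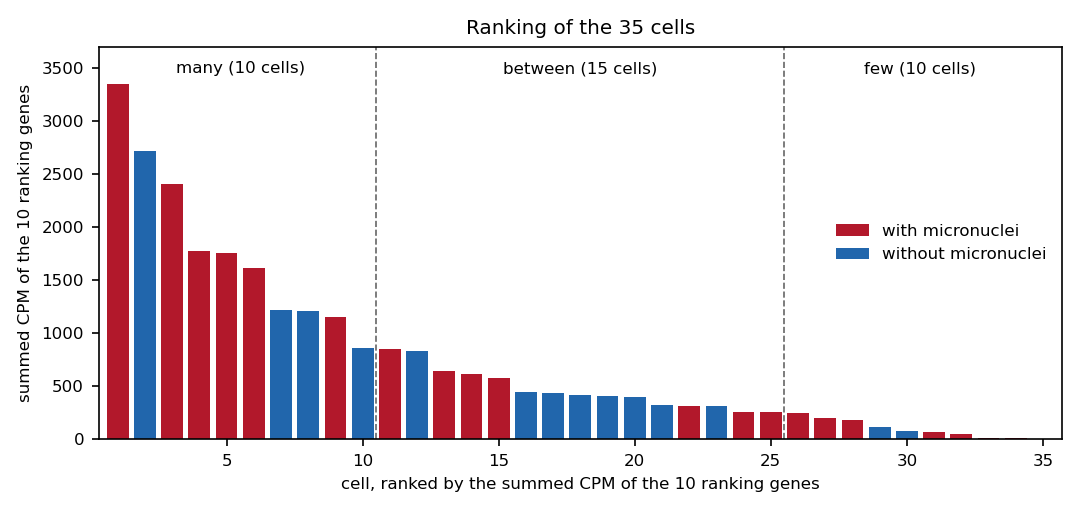
Bars give the summed CPM of the 10 ranking genes (linear axis) in each of the 35 cells, ordered by that sum and coloured by the micronuclei label; dashed lines part the many side, the cells between and the few side. Cells with and without micronuclei stand on both sides, and the cells next to each dashed line differ little, 858 against 853 CPM and 251 against 247 CPM.

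Depth and content of the libraries overlapped. Reads on genes ran from 57514 to 1794113 a cell in the many side (median 414108) and from 200739 to 1465562 in the few side (median 522562); 67.2% of the many side's 7038953 reads and 58.7% of the few side's 6926372 came from 3 cells each. Genes with a read had medians of 6673 and 6580, spike-in shares 1.62% and 0.723%, and mitochondrial shares 1.42% and 1.13%. Of 11 fibroblast markers 9 were measured, with summed levels of 5412 to 17397 CPM in the many and 4417 to 14035 CPM in the few cells. The medians of these sums were 6778 and 8541 CPM. All 12 macrophage markers had reads in micronucleated cell 10 of the few side, at 16939 CPM, of which Lyz2 was 13946 CPM. The other few cells reached 60.3 CPM and the many cells 64.1 CPM, with Lyz2 at 0 in all of these.

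Genes were compared as log2((CPM + 1)/(CPM + 1)) of reads summed over each side, many over few. A gene is called higher or lower where it differed at least 2-fold both in this sum and with every cell given equal weight. Measured means at least 5 CPM over the 20 cells and at least 5 reads in 5 of them. Of 7298 measured genes 1006 (13.8%) were called higher and 880 (12.1%) lower in the many side; the median log2 ratio was −0.03. In 2 genes (0.0274%) every many cell lay above every few cell, and in 0 (0%) the reverse held. Apart from 20 set genes, the genes named below were chosen by their values in these cells, mostly by large and steady ratios. That holds also where it is not said again. Large ratios and few-side values of 0 in the named higher genes follow in part from the choice and are not separate findings.

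Genes of the mitotic machinery outside the ranking genes were mostly called higher in the many side. Of 127 listed genes for mitotic kinases, spindle, kinetochore and mitotic chromatin, 123 had a row and 83 were measured. Of the 83, 60 (72.3%) were called higher and 2 (2.41%) lower, beside 13.8% and 12.1% of all measured genes. Their median log2 ratio was 2.51. Of the 83, 47 reached 5 reads in at least 5 cells of the many side but not of the few side. They passed the minimum through the many side, so their difference follows in part from the minimum and is not a separate finding. Over the 123 genes with a row, the summed level was 5279 CPM in the lowest, 8638 in the median and 14248 in the highest many cell, against 1481, 2907 and 4720 CPM in the few cells. The sides did not overlap. The cells between had a median of 3201 CPM, nearer to the few side. With each cell thinned to 115191 reads, which left 8 many and 10 few cells, 34 to 108 of these genes had a read in a many cell (median 79) and 10 to 56 in a few cell (median 31). In micronucleated cells alone, 6 against 8, the median log2 ratio was 1.78. There 38 of 65 measured genes were higher and 3 lower, beside 758 and 695 of all 6297 measured genes. The median was 2.87 when the 4 cells with over 100 CPM of macrophage markers were left out before ranking. Then 61 of 82 were higher and 2 lower, beside 1022 and 840 of all 7153. It was 2.27 when 4 many cells were left out, those with under 100000 reads or with over 50% of the score from 1 gene. In that setting 58 of 78 were higher and 3 lower, beside 962 and 883 of all 7048.

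**Figure D2:**
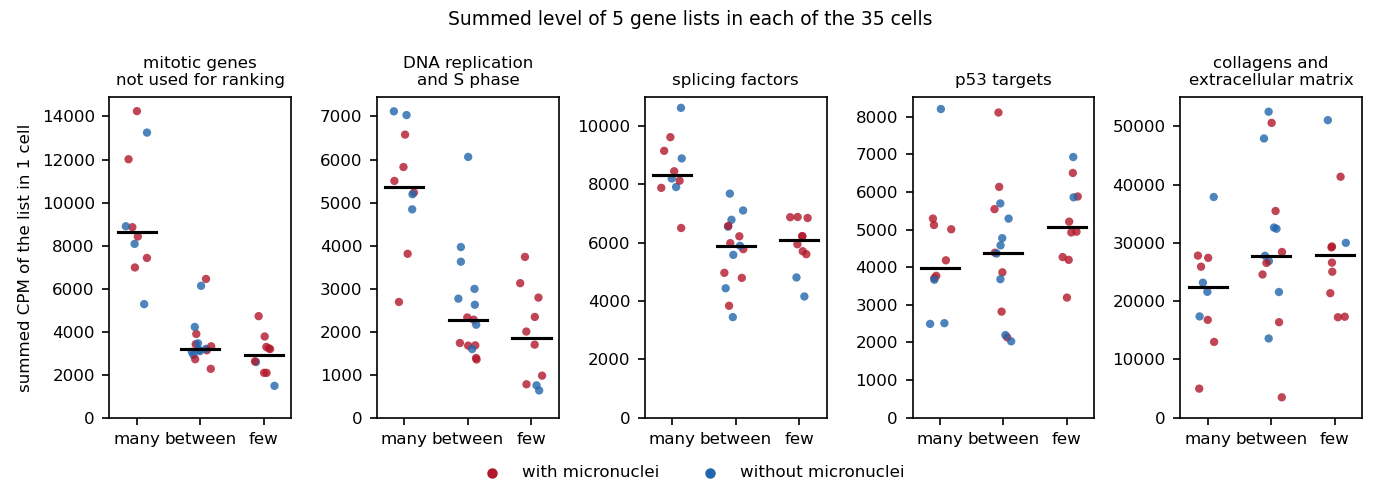
Each point is 1 cell, placed by its side (many, between, few) and by the summed CPM of a gene list on a linear axis from 0; red cells have micronuclei, blue cells none, and black lines are medians. The mitotic genes not used for ranking part the many from the few side (lowest many cell 5279 CPM, highest few cell 4720 CPM), whereas p53 targets and matrix genes overlap.

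Among kinases, cyclins and their regulators 9 of 19 measured genes (47.4%) were called higher and 1 (5.26%) lower. The shares of all measured genes were 13.8% and 12.1%. Of the 19, 9 reached 5 reads in 5 cells on the many side alone. The median log2 ratio was 1.21 over these 19 and 2.87 over all 32 members with a read, 26 of them above 0. Plk1, the polo-like kinase of mitotic entry, stood at 0, 64.1 and 639 CPM in the lowest, median and highest many cell and had no read in any few cell, at least 379-fold higher in the summed CPM against a floor of 3 reads over the side. Cell 8 without micronuclei gave 78.5% of the reads, and leaving it out took the log2 ratio from 7.37 to 5.50. Aurka, the centrosomal Aurora kinase, stood at 0, 98.7 and 223 CPM against 0, 0 and 18.7 CPM, with at least 5 reads in 8 many cells and in 1 few cell; micronucleated cell 17 held all few-side reads, and leaving it out took the log2 ratio from 5.57 to 6.35. Cdc20, which switches on the anaphase-promoting complex and whose promoter is printed above, reached 0, 168 and 440 CPM against 0, 0 and 110 CPM. Again 1 few cell held all reads; leaving out that cell, micronucleated cell 12, gave a log2 ratio of 7.11 in place of 5.05. Cdca3, a trigger of mitotic entry, was at 111 against 1.59 CPM in summed reads (log2 ratio 5.44, 4.39 without cell 4 without micronuclei and 6.28 without micronucleated cell 12). Ccna2, cyclin A of S and G2 phase, overlapped more, at 0, 42.04 and 356 CPM against 0, 0 and 68.7 CPM; its log2 ratio of 4.03 was 2.81 without cell 4 without micronuclei and 6.86 without micronucleated cell 10, the cell with macrophage markers.

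4 regulators known for mitosis were too sparse to be measured. Cyclin B2 (Ccnb2) had 48.6 CPM on the many side against 2 reads on the few side, a ratio of 168 with a counting interval of 46.2 to 1395, and 76.0% of the many-side reads came from micronucleated cell 13 (log2 ratio 5.27, 3.69 without it). Aurkb, the kinase of the chromosomal passenger complex, and Bub1, a checkpoint kinase, had no read in any few cell and at least 5 reads in 4 many cells each. Leaving out cell 4 without micronuclei took the log2 ratio of Aurkb from 6.83 to 5.15, and leaving out micronucleated cell 9 took that of Bub1 from 4.23 to 3.59. Foxm1, the transcription factor of mitotic promoters, had at least 5 reads in 4 many cells and in 0 few cells (21.3 against 0.578 CPM; log2 ratio 3.82, 2.84 without cell 4 without micronuclei and 4.48 without micronucleated cell 1). The gene called lower was Fzr1 (log2 ratio −3.17, −0.74 without micronucleated cell 14 and −3.91 without micronucleated cell 8), which encodes Cdh1, the activator of the anaphase-promoting complex in late mitosis and G1; it is named after its value was seen.

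Spindle, kinesin and cytokinesis genes were called higher in 19 of 25 measured genes (76%) and lower in 1 (4%). The shares of all measured genes were 13.8% and 12.1%. Of the 25, 17 reached the 5-cell minimum on the many side alone. The median log2 ratio was 3.59 over the 25 and 3.45 over all 36 members with a read. Hmmr, which links spindle microtubules, and Kif23, the kinesin of the central spindle, had no read in any few cell. Hmmr stood at 0, 87.9 and 401 CPM in many cells and was at least 323-fold higher in summed CPM; leaving out cell 8 without micronuclei took its log2 ratio from 7.14 to 6.23. Kif23 stood at 0, 48.0 and 134 CPM and was at least 152-fold higher, with a read in 8 of 10 many cells. Fam83d, a spindle-alignment gene whose promoter is printed above, also had no read in any few cell and was at least 176-fold higher, though cell 4 without micronuclei held 67.1% of the reads and leaving it out took the log2 ratio from 6.27 to 5.05. Ect2 and Cit, which drive the contractile ring, had log2 ratios of 5.03 and 5.27, and Kif20b, a kinesin of abscission, 5.28. For all 3, most few-side reads lay in micronucleated cell 10, without which the ratios were 6.04, 6.07 and 6.35. Stmn1, which takes microtubules apart, is the counterexample in this list. It stood at 11.2, 103 and 194 CPM in many cells and 0, 0 and 224 CPM in few cells; micronucleated cell 17 of the few side lay above every many cell, and the log2 ratio of 2.60 was 3.74 without it. Psrc1 was called lower (−1.57, −0.63 without micronucleated cell 14 and −2.76 without cell 4 without micronuclei), named after its value was seen.

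Kinetochore, centromere and checkpoint genes were called higher in 16 of 19 measured genes (84.2%) and lower in 0. The shares of all measured genes were 13.8% and 12.1%. Of the 19, 14 reached the 5-cell minimum on the many side alone, which favours a higher value there. The median log2 ratio was 3.04 over the 19 and 3.69 over all 32 members with a read. Cenpe, the kinetochore kinesin, was present in every many cell at 13.4, 141 and 301 CPM, against 0, 0 and 37.6 CPM; 8 of 10 many cells lay above all few cells, and the log2 ratio was 5.59, or 6.50 without cell 12 without micronuclei. Knl1, the kinetochore scaffold that recruits Bub1, and Trip13, which dismantles the checkpoint complex, had no read in any few cell and were at least 129-fold and 84.0-fold higher in summed CPM; leaving out micronucleated cell 13 took the log2 ratio of Knl1 from 5.83 to 5.21. Cdca8 (borealin, of the chromosomal passenger complex) had at least 5 reads in 8 many cells and in 1 few cell, with a log2 ratio of 4.85, or 5.81 without micronucleated cell 11.

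Mitotic chromatin genes contain both genes whose sides did not overlap. H2afz, the histone variant H2A.Z (GRCm38 chromosome 3, 137864487 to 137866922), stood at 692, 1015 and 1391 CPM in the lowest, median and highest many cell and at 128, 208 and 673 CPM in the few cells. Every many cell lay above every few cell. The summed levels were 1110 and 247 CPM (exact Poisson 95% intervals 1086 to 1135 and 236 to 259), a log2 ratio of 2.16 that stayed between 2.03 and 2.31 whichever cell was left out. Near-identical copies of this gene make its count uncertain. Smc4, a condensin core subunit (chromosome 3, 69004738 to 69034623), was named because its sides did not overlap, after its values were seen. It stood at 69.5, 123 and 313 CPM in many cells and 0, 2.83 and 67.0 CPM in few cells, a log2 ratio of 2.65 (2.28 without cell 4 without micronuclei, 3.34 without micronucleated cell 7). The cells between reached 683 CPM for H2afz and 152 CPM for Smc4. 17 of 21 measured genes of the list (81.0%) were called higher and 0 lower (median 2.05), beside 13.8% and 12.1% of all measured genes. Of the 21, 8 reached 5 reads in 5 cells on the many side alone. Other condensin subunits were more scattered: Ncaph2 stood at 0, 185 and 396 CPM against 0, 14.8 and 88.3 CPM (log2 ratio 3.23), Ncapd2 at 0, 69.1 and 157 CPM against 0, 0 and 54.0 CPM (2.80), Ncaph at 0, 14.7 and 178 CPM against 0, 0 and 13.1 CPM (2.91), and Ncapg at 0, 6.55 and 134 CPM against 0, 0 and 29.99 CPM (3.25). Without micronucleated cell 10 these 4 ratios were 3.79, 4.35, 3.90 and 4.05, and that of Ncapg was 2.35 without cell 4 without micronuclei.

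**Figure D3:**
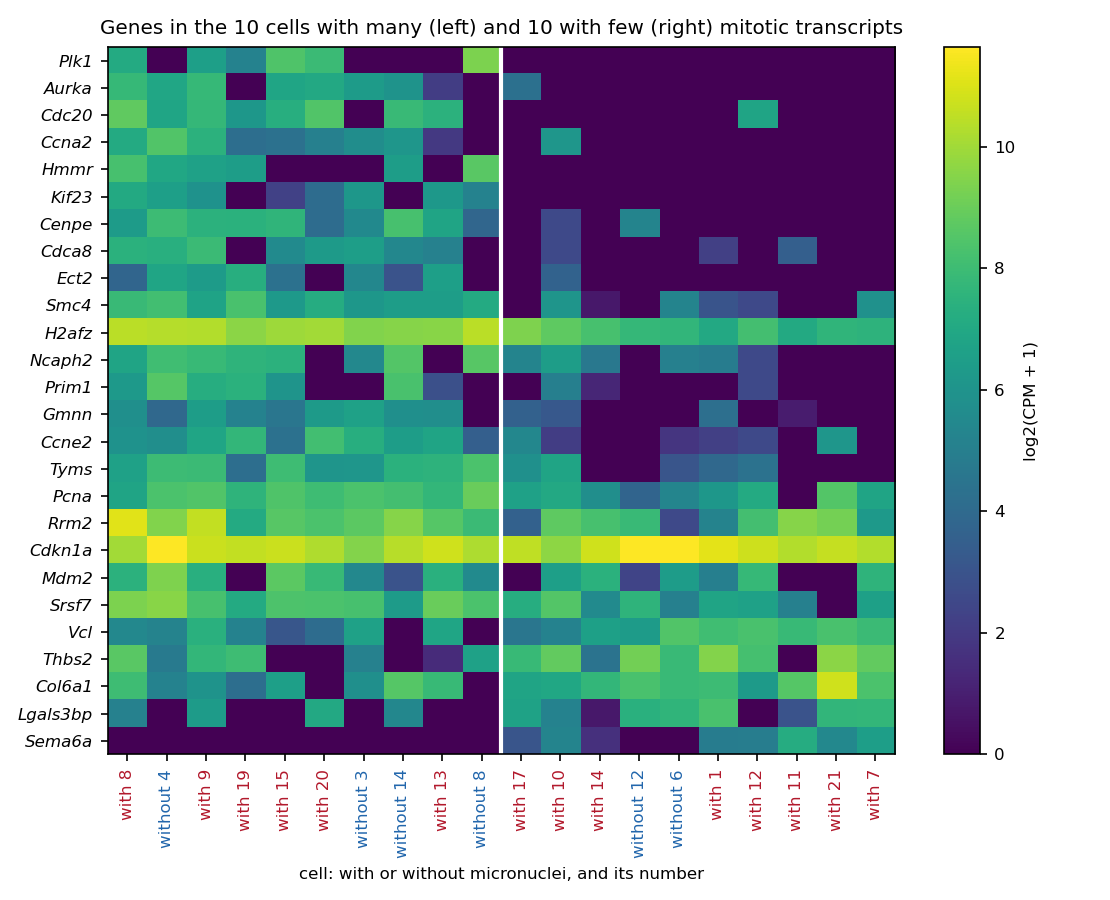
Colour gives log2(CPM + 1) of 26 genes in each of the 20 cells, the many side left of the white line and the few side right of it, in order of the ranking score; column names give the micronuclei label and cell number. H2afz and Smc4 are high in every many cell, Plk1, Hmmr and Kif23 are at 0 in every few cell, and Cdkn1a is high on both sides.

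The CHR letters were common in promoters of the measured mitotic genes. RefSeq windows of 300 bases (250 before to 50 after the start) were matched for 71 of the 83 genes, and 60.5% of their 81 promoters held TTTGAA or TTCGAA on either strand, against 19.2% of all 32851 promoters in the table. Within 50 bases of the start the shares were 48.1% and 5.31%. For measured replication genes, 43 of 53 matched with 50 promoters, the shares were 14% in the window and 4% near the start. Over the promoters of all measured genes these shares were 13.4% and 3.49%, close to those of the replication genes. They were 17.9% and 7.02% for all genes called higher and 14.8% and 3.60% for all genes called lower. The high shares above therefore belong to the listed mitotic genes and not to the called genes as a whole. CCAAT was found in 70.4% of the mitotic and 64% of the replication promoters, against 37.4% of all. In Cdc20 the CHR letters lie 13 to 18 bases before the start, in Ncaph2 17 to 22, in Ncapg 25 to 30 and in Fam83d 45 to 50. A match describes the sequence and does not show that a factor binds there.

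DNA replication and S phase genes were higher in the many side too. Of 66 listed, 53 were measured. Of these, 33 (62.3%) were called higher and 0 lower, beside 13.8% and 12.1% of all measured genes. The median log2 ratio was 1.57, and 1.25 in micronucleated cells alone. The median was 1.66 without the cells with macrophage markers and 1.49 without the 4 many cells named above; 27 of the 53 passed the minimum of 5 cells in the many side and not in the few side. The list's summed level was 2689, 5367 and 7119 CPM in the lowest, median and highest many cell against 633, 1850 and 3736 CPM in the few cells. Micronucleated cell 13 (2689 CPM) was the 1 many cell inside the few side's range. Prim1, the catalytic primase subunit, stood at 0, 70.4 and 376 CPM against 0, 0 and 31.1 CPM, a log2 ratio of 4.83 that was 3.50 without cell 4 without micronuclei and 6.33 without micronucleated cell 10. Tyms, which makes thymidylate and whose printed promoter holds neither motif, stood at 17.4, 176 and 321 CPM against 0, 3.63 and 110 CPM (3.90, and 5.31 without micronucleated cell 10). Gmnn, the inhibitor of origin licensing that accumulates from S phase on, had at least 5 reads in 8 many and 2 few cells (3.78). Ccne2, a cyclin of S phase entry, had at least 5 reads in all 10 many cells and in 2 few cells (3.31, and 4.41 without micronucleated cell 21).

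The abundant replication genes differed less and overlapped. Pcna, the sliding clamp of the polymerases, stood at 110, 303 and 503 CPM in many cells and 0, 86.0 and 367 CPM in few cells, with at least 5 reads in 10 and 8 cells; the log2 ratio was 1.91. Rrm2, the regulated subunit of ribonucleotide reductase, stood at 139, 404 and 2223 CPM against 4.85, 261 and 746 CPM. The log2 ratio of 1.20 dropped below the call, to 0.89, when micronucleated cell 9 was left out, and stood at 1.72 when micronucleated cell 11 was. Mcm2, of the replicative helicase, was at 31.8 against 12.6 CPM in summed reads (1.28), and at 0.64 without cell 4 without micronuclei or 2.28 without cell 6 without micronuclei. Replication-dependent histones have transcripts that mostly lack the poly(A) tail that Smart-seq2 primes on. Of 8 measured, 3 (37.5%) were called higher and 3 (37.5%) lower, beside 13.8% and 12.1% of all measured genes. Of the 8, 3 reached 5 reads in at least 5 cells of the many side but not of the few side. With the macrophage-marker cells left out before ranking, 3 of 6 were higher and 0 lower. The linker histone Hist1h1b (46.3 against 1.44 CPM, 4.28), Hist1h2ae (3.33) and Hist1h4d (2.85) were higher. Hist1h1b stood at 5.32 and Hist1h2ae at 4.54 without micronucleated cell 7, and Hist1h4d at 3.58 without cell 6 without micronuclei. Hist1h4h (−3.49, −2.37 without micronucleated cell 14), Hist1h2bc (−2.02, −2.70 without micronucleated cell 9) and Hist1h1c (−1.27, −0.79 without micronucleated cell 14 and −4.04 without micronucleated cell 9) were lower, the last pair named after their values were seen. Hist1h2ae and Hist1h4d share sequence with other histone genes and are uncertain. The same may hold for Hist1h4h, an H4 gene like Hist1h4d.

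**Figure D4:**
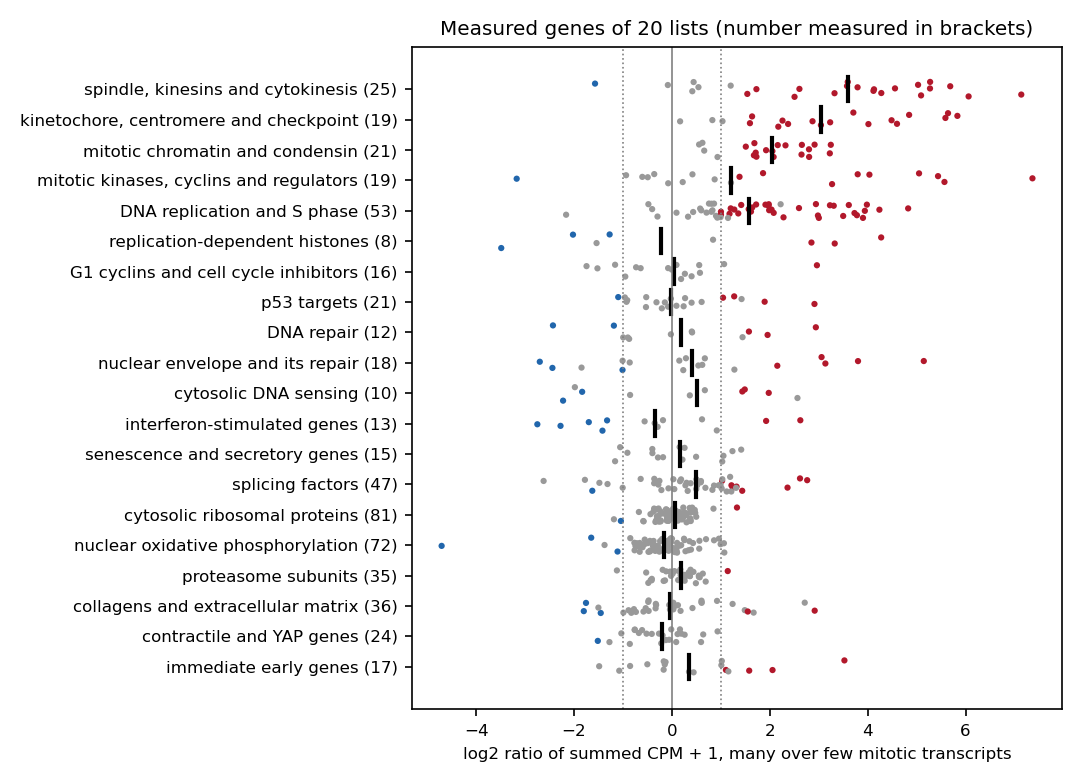
Each dot is a measured gene of 1 of 20 lists, placed by its log2 ratio of summed CPM + 1 (many over few); red and blue dots are called higher and lower, grey dots are not called, black bars are list medians and dotted lines mark 2-fold. The 4 mitotic lists and the replication list have medians of 1.21 to 3.59, while p53 targets have a median of −0.02.

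Genes of G1 and of the p53 response had list medians near 0, and Cdkn1a was high on both sides. Of 16 measured G1 cyclins and cell cycle inhibitors 1 was called higher, Rbl1 (p107 of the DREAM complex; log2 ratio 2.96, 1.20 without cell 4 without micronuclei, which held 78.1% of the many-side reads, and 3.87 without micronucleated cell 21), and 0 lower, with a median of 0.05. Ccnd2, cyclin D2, stood at 144, 497 and 2591 CPM in many cells against 393, 754 and 3923 CPM in few cells and was not called (log2 ratio −1.74, −0.77 when every cell had equal weight, −1.13 without micronucleated cell 11). Ccnd1, cyclin D1, was at 47.6 against 79.7 CPM, a log2 ratio of −0.73 that was −1.23 without micronucleated cell 13 and 0.18 without micronucleated cell 10. Of 21 measured p53 targets 4 (19.05%) were called higher and 1 (4.76%) lower, beside 13.8% and 12.1% of all measured genes. The list's median was −0.02; the summed level was 2494, 3977 and 8204 CPM in many cells and 3192, 5077 and 6928 CPM in few cells. Cdkn1a, which encodes p21, reached 5 reads in each of the 20 cells. It stood at 724, 1423 and 3187 CPM in many cells and 814, 1649 and 3170 CPM in few cells, so the sides overlapped almost fully; the log2 ratio was 0.09 in summed reads, −0.28 with equal weights and −0.24 without cell 4 without micronuclei. Mdm2, the p53 ubiquitin ligase, stood at 0, 165 and 660 CPM against 0, 58.4 and 219 CPM (1.27), but at 0.38 without cell 4 without micronuclei, which held 57.8% of its many-side reads. Sesn2, of the stress response, had at least 5 reads in 3 many and 2 few cells, with 75.3% of the many-side reads in micronucleated cell 13 (2.91, 1.38 without that cell and 4.30 without micronucleated cell 10). Aen, a p53-induced nuclease, was at 75.7 against 19.6 CPM (1.89), and Polk, a translesion polymerase named after its value was seen, at 1.04, or 0.20 without micronucleated cell 13. The call lower was Tob1, an antiproliferative gene (−1.10, −0.79 without cell 8 without micronuclei). With the macrophage-marker cells left out before ranking, 0 of the 21 were called higher and 1 lower, and without micronucleated cell 10 alone 2 of 20 were higher and 1 lower. Of 15 measured senescence and secretory genes 0 were called in either direction.

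Nuclear envelope genes had a median log2 ratio of 0.41. Of 18 measured, 5 (27.8%) were called higher and 3 (16.7%) lower, beside 13.8% and 12.1% of all measured genes. Lmnb2, a B-type lamin, was at 70.2 against 1.01 CPM (log2 ratio 5.15, 3.10 without cell 8 without micronuclei, which held 81.6% of the many-side reads, and 5.94 without micronucleated cell 10). Tmpo, the lamin-binding LAP2, stood at 0, 69.0 and 122 CPM against 0, 0 and 99.6 CPM (3.14, 3.91 without micronucleated cell 12), and Tor1aip1, LAP1 of the inner membrane, was at 69.3 against 4.04 CPM (3.80, 2.64 without micronucleated cell 13). Lemd3 (3.06, 2.04 without cell 4 without micronuclei and 3.72 without micronucleated cell 1) and Syne1 (2.15, 1.10 without cell 4 without micronuclei) were also higher. Lemd2 (−2.70), Chmp7 (−2.44, −0.09 without micronucleated cell 11 and −3.19 without cell 8 without micronuclei) and Sun1 (−1.01, −0.68 without cell 4 without micronuclei and −2.65 without micronucleated cell 13) were lower; Syne1 and these 3 are named after their values were seen. Lmnb1, a lamin whose loss marks senescence, was too sparse to be measured, with at least 5 reads in 4 many cells and no read in any few cell. In DNA repair 3 of 12 (25%) were called higher, the nuclease gene Exo1 (2.94, 3.69 without micronucleated cell 17), the helicase gene Blm (1.57, but 0.63 without cell 4 without micronuclei and 5.33 without micronucleated cell 7) and Rbbp8 (1.95, −0.13 without cell 8 without micronuclei). The 2 lower (16.7%) were the checkpoint kinase gene Atr (−2.43) and Rad50 (−1.19, 0.15 without micronucleated cell 14); Rbbp8 and Rad50 are named after their values were seen. In micronucleated cells alone 0 of 10 repair genes were higher and 2 lower, and without the 4 many cells named above 1 of 11 was higher and 1 lower, with a median of −0.41 in place of 0.19.

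Genes of cytosolic DNA sensing had no common direction. More interferon-stimulated genes were called lower than higher, though not in micronucleated cells alone. In DNA sensing 30% of measured genes were called higher and 20% lower, and among interferon-stimulated genes 15.4% and 38.5%. The shares of all measured genes were 13.8% and 12.1%. In DNA sensing 3 of 10 were called higher, Tbk1 (1.49, 0.58 without micronucleated cell 9 and 2.58 without micronucleated cell 21), Samhd1 (1.98, 0.43 without cell 4 without micronuclei and 2.75 without micronucleated cell 12) and Rnaseh2b (1.44, 0.99 without micronucleated cell 13), and 2 lower, Rnaseh2c (−2.22) and Ddx41 (−1.83, −0.41 without micronucleated cell 14 and −2.59 without cell 4 without micronuclei). Samhd1 and Ddx41 are named after their values were seen. Without the 4 many cells named above, 1 of 9 was higher and 0 lower. Mb21d1, the table's symbol for cGAS, was not measured, with at least 5 reads in 2 many cells and 1 few cell. Its log2 ratio of 1.79 turned to −0.13 without cell 4 without micronuclei, which held 85.7% of the many-side reads, stood at 3.31 without micronucleated cell 10 and was −0.80 among micronucleated cells. Tmem173, the adaptor STING, had 97.6% of its many-side reads in the same cell and was not called (−0.85; −4.72 without that cell, 0.03 without micronucleated cell 14). Of 13 measured interferon-stimulated genes 2 were higher, Eif2ak2 (2.62, 1.40 without cell 4 without micronuclei) and the class I gene H2-K1 (1.92, 2.85 without micronucleated cell 7), and 5 lower, with a median of −0.35. In micronucleated cells alone 2 of 11 were higher and 2 lower, and without the 4 many cells named above 2 of 13 were higher and 3 lower. Among those lower, Lgals3bp stood at 0, 0 and 130 CPM in many cells and 0, 136 and 309 CPM in few cells (−2.75, −4.31 without micronucleated cell 9), and Ifi27 at 0, 0.279 and 201 CPM against 0, 64.4 and 204 CPM (−1.70, −4.66 without micronucleated cell 9). Also called lower were Ifi35 (−2.28, −0.75 without micronucleated cell 11 and −2.98 without micronucleated cell 15) and Trim25 (−1.42, −0.88 without micronucleated cell 12 and −4.69 without micronucleated cell 9), named after their values were seen.

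Of 47 measured splicing factors 8 (17.02%) were called higher, a share near the 13.8% of all measured genes, and 1 (2.13%) lower. Their median log2 ratio was 0.50, and 0.22 without the 4 many cells named above. In micronucleated cells alone 4 of 46 were higher and 3 lower, with a median of 0.26, where 758 of all 6297 measured genes were higher. The list's summed level was 6503, 8323 and 10619 CPM in many cells and 4155, 6079 and 6880 CPM in few cells, and 9 of 10 many cells lay above all few cells. Srsf7, a serine/arginine-rich factor, stood at 82.1, 325 and 770 CPM against 0, 98.6 and 363 CPM (2.36). Snrpa1, of the U2 particle, stood at 47.9, 171 and 515 CPM against 0, 63.4 and 207 CPM (1.44), and Hnrnpd at 7.34, 63.1 and 332 CPM against 0, 13.1 and 62.6 CPM (2.62). Without cell 8 without micronuclei the last 2 ratios were 1.00 and 1.23. For comparison, 1 of 81 measured ribosomal protein genes was called higher and 1 lower (median 0.07), 0 of 72 nuclear oxidative phosphorylation genes higher and 3 lower (median −0.17), and 1 of 35 proteasome genes higher and 0 lower (median 0.18).

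Matrix and contractile genes had list medians near 0. The 9 measured fibroblast markers had a median log2 ratio of −0.79, with 0 called higher and 1 lower. That median was −0.27 with equal weights and −0.07 in micronucleated cells alone. Of 36 measured matrix genes 2 (5.56%) were higher and 3 (8.33%) lower, against 13.8% and 12.1% of all measured genes (median −0.05, and −0.41 with equal weights). Col6a1, a chain of collagen VI, stood at 0, 57.8 and 376 CPM in many cells and 79.7, 243 and 1769 CPM in few cells (−1.76, −2.53 without micronucleated cell 13), and its partner Col6a2 at 0, 16.6 and 194 CPM against 11.4, 100.4 and 404 CPM (−1.45, −2.28 without that cell). Thbs2, a matricellular thrombospondin, stood at 0, 29.99 and 403 CPM against 0, 376 and 777 CPM (−1.80). Fbln1 (2.92) and Vcan (1.55, −0.24 without cell 8 without micronuclei and 2.34 without micronucleated cell 7), matrix proteins, were higher, Vcan being named after its value was seen. Of 24 contractile and YAP genes 0 were higher and 1 lower, Vcl, the focal adhesion protein vinculin. It stood at 0, 35.2 and 169 CPM in many cells and 22.4, 237 and 354 CPM in few cells; 6 few cells lay above all many cells, and the log2 ratio was −1.51, or −0.71 among micronucleated cells. Among 17 immediate early genes 4 (23.5%) were higher and 0 lower, or 3 and 2 with the macrophage-marker cells left out before ranking. The 4 were Egr2 (3.52, 2.35 without cell 8 without micronuclei and 4.13 without micronucleated cell 10), Junb (2.06), Ier3 (1.58) and Dusp1 (1.10, −0.12 without micronucleated cell 9 and 3.06 without micronucleated cell 7), the last named after its value was seen.

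The 12 genes most steadily lower in the many side belong to none of the gene lists used here. They were chosen by their low ratios and by having at least 5 reads in at least 5 few cells. Large differences and reads in that many few cells therefore follow from the choice and are not separate findings. Sema6a, a transmembrane semaphorin, had no read in any many cell and stood at 0, 29.1 and 145 CPM in few cells, with a read in 8 of 10, at least 121-fold lower in summed CPM. Aamdc (at least 101-fold lower), Per3, a circadian clock gene (at least 79.6-fold), and Mapk1ip1 (at least 67.4-fold) also had no read in any many cell and at least 5 reads in 6, 5 and 6 few cells. Sema6a, Per3 and Mapk1ip1 had no read in the 2 few cells without micronuclei either, so those values rest on micronucleated cells. Micronucleated cell 7 weighed most on Per3, whose log2 ratio was −5.13 with it and −3.84 without, and on Mapk1ip1, at −4.89 and −4.14. Sema6a stood at −5.72, and at −5.09 without micronucleated cell 11. Bivm had 2 many-side reads against 350 (ratio 178, counting interval 48.9 to 1474), and Atat1, the tubulin acetyltransferase, 3 against 950 (322, 110 to 1563). The log2 ratio of Bivm was −4.65 in place of −5.33 without micronucleated cell 14, and that of Atat1 −5.87 in place of −6.60 without micronucleated cell 11. In Slc36a1, Uap1l1, Slc25a22, Specc1l, Mepce and Nudt16, which complete the 12 most steady lower genes, the log2 ratios ran from −5.16 to −4.20, and at least 5 reads were found in 5 few cells each. With 1 cell left out they reached −3.83 in Slc25a22 and −3.59 in Mepce (micronucleated cell 21), −3.75 in Specc1l (micronucleated cell 11), −4.03 in Nudt16 (micronucleated cell 14) and −4.09 in Uap1l1 (micronucleated cell 1). They were further from 0 in Specc1l (−6.57) and Mepce (−5.10) without micronucleated cell 8 and in Uap1l1 (−5.36) without cell 3 without micronuclei. Uap1l1 had a log2 ratio of 0.12 when 12 cells a side were taken.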

How the data were processed

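The deposited table holds raw read counts per gene for 35 cells, 19085 genes and 62 ERCC spike-ins. The aligner was STAR and the genome GRCm38.p5, per the submitters' processing notes; the counts were made with Rsubread and cells filtered with scater, per the deposited phenotype table. Neither tool versions nor the use of strand is given in the sources used here, so genes whose exons overlap a gene on the opposite strand are uncertain (among those named, Cdc20, Ccna2, Cdca8, Ncaph2, Ncapg, Ccne2, Ccnd1, Ccnd2, Atr, Tor1aip1, Tmpo, Rnaseh2b, Rnaseh2c, Eif2ak2, Vcl, Junb, Mapk1ip1, Atat1, Hnrnpd, Fzr1, Rbbp8, Lemd2, Sun1, Ddx41, Ifi35 and Dusp1). Foxm1, Ncapd2 and Snrpa1 overlap a gene on their own strand.

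All 35 cells were used, with no further filter and no doublet caller; 0 of 595 pairs of cells were identical, and 0 columns of other samples were found. Depth ran from 56766 to 2023111 reads a cell. Intervals (95%) cover counting error only. Genes named were the 12 higher and 12 lower with at least 20 CPM on a side, 5 or more reads in 50% of that side's cells where higher and the largest smallest log2 ratio of 1 sign over summed reads, equal weights and every leave-out; up to 4 measured genes a list by that value; and 20 set genes, of which 1 is not analysed here. Some genes that the rule names are not reported here. Members and lists were chosen with earlier results of these data known. Tried besides were scaling by TMM or scran factors, cells weighted equally, the mean of log2 CPM, a pseudocount of 0.1 or 5 CPM, a stricter filter (20 CPM, 10 cells) or none, thinning, 8 or 12 cells a side, ranking by mean log2 CPM or without Hmgb2, micronucleated cells only and leaving out each cell; 2 more, without macrophage-marker cells and without 4 many cells, were chosen after seeing the data. The call functions were run on simulated counts as a check of the code, which does not tell how many calls in these cells are false. Gene positions are from GENCODE for GRCm38. R 4.3.3 with edgeR 4.0.16 (TMM factors only) and scran 1.30.0 was used beside Python 3.11.15 with scipy 1.17.1, numpy 2.4.6, matplotlib 3.10.9 and pandas 2.3.3.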

Additional observations from a re-analysis of the deposited data

Results flagged for a closer look

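Within each side of 10 cells, 84 sets of values shown in the report were searched for a cell set apart, one whose gap to its neighbour as a share of the range exceeded Dixon's 95% limit. Such sets numbered 26. The limit is passed by chance in about 1 in 20 sets only where values are independent and normally distributed. The sets here share cells, and many genes had no read in most cells. For Aurka, Cdc20 and Ccna2 only 1 few cell had reads, so it was set apart by construction. The count of 26 therefore cannot be compared with that rate, and the cells below are only described.

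Micronucleated cell 10 of the few side was set apart most often. It stood at 16939 CPM of macrophage markers, and among the few cells it was the highest for Ccna2 (68.7 CPM), Ncaph2 (88.3 CPM), Ncapd2 (54.0 CPM), Ncaph (13.1 CPM), Prim1 (31.1 CPM), Tyms (110 CPM) and Srsf7 (363 CPM). In the many side the macrophage sum was highest in cell 8 without micronuclei, at 64.1 CPM from 1 marker; that cell also stood apart for Plk1 (639 CPM) and Snrpa1 (515 CPM).

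Cell 4 without micronuclei, of the many side, stood apart for summed p53 targets (8204 CPM), Cdkn1a (3187 CPM) and Ccna2 (356 CPM). Cell 14 without micronuclei stood apart for summed fibroblast markers (17397 CPM) and Ncaph (178 CPM), micronucleated cell 19 for Ccnd2 (2591 CPM) and micronucleated cell 9 for Ifi27 (201 CPM).

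Other cells of the few side set apart were micronucleated cell 21 for Pcna (367 CPM) and Col6a1 (1769 CPM), cell 17 for Aurka (18.7 CPM) and Stmn1 (224 CPM), cell 12 for Cdc20 (110 CPM) and Tmpo (99.6 CPM), cell 11 for Ccnd2 (3923 CPM), and cell 12 without micronuclei for Cenpe (37.6 CPM).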

How the results depend on the processing

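The median log2 ratio of the mitotic genes not used for ranking, the median log2 ratio of DNA replication and S phase genes and the median log2 ratio of p53 targets moved by less than the spread between cells in all 36 alternatives each: 1.68 (stricter filter) to 3.20 (ranking by mean log2 CPM) for mitotic genes, 1.20 to 2.26 for replication genes and −0.31 to 0.31 for p53 targets. That spread is the standard deviation between single cells, a wide limit that leaving out 1 cell could hardly pass. Leaving out 1 cell gave 2.28 to 2.93, 1.20 to 1.83 and −0.31 to 0.17. Counts of genes higher in the cells with many mitotic transcripts and of genes lower in the cells with many mitotic transcripts ran from 910 to 1083 and from 787 to 944 when 1 cell was left out. They depended on the filter, 2511 and 2565 with none (16451 genes) and 402 and 288 with the stricter one (4219 genes), and 1513 genes were higher by mean log2 CPM, of which 799 were among the 1006; the other settings stayed within 1.5 times. Of the 1006 higher genes 664 were also higher after ranking by mean log2 CPM and 492 after thinning, and of the 880 lower genes 592 and 393. Micronucleated cells numbered 6 or 7 of 10 on the many side and 7 or 8 on the few side under other rankings, 5 and 6 of 8, and 7 and 10 of 12. The sign turned for Mb21d1 (−0.80 in micronucleated cells, −0.13 to 3.31 with 1 cell left out), Uap1l1 (0.12 at 12 cells a side), Rbbp8 (−0.017 at 8 cells a side, −0.12 without the 4 many cells, −0.13 to 2.35 with 1 cell left out), Rad50 (−1.64 to 0.15 with 1 cell left out), Samhd1 (−0.021 after thinning), Vcan (−0.27 by mean log2 CPM, −0.41 ranked by it, −0.0053 in micronucleated cells, −0.29 without the 4 many cells, −0.24 to 2.34 with 1 cell left out) and Dusp1 (−0.12 to 3.06 with 1 cell left out); the cause was not tested. No paired analysis was possible because the cell numbers follow accession order and tie no cells together. Single genes are at 0 in many cells of both sides, and reads a cell ran from 57514 to 1794113.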
